A study of Mus musculus with 4 samples.

Results

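DNA methylation was examined at 9 genes that encode transcription factors of the osteoblast (OB) lineage: Runx2, Runx1, Runx3, Sp7, Dlx5, Dlx3, Msx2, Atf4 and Twist1. The genes were listed by name, with earlier results of these data known. Their entries for promoter, 5′ UTR, exons, introns and 3′ UTR were taken by Ensembl identifier, and CpG islands and island shores were added where they overlapped a gene by at least 1 base. This gave 35 gene regions, all with a level in 4 of 4 libraries, and 37 islands and shores, of which 34 (13 islands and 21 shores) had a level in every library. The series holds 28883 gene identifiers, with 76155 gene regions and 30534 islands and shores that have a level in all 4 libraries.

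The study asked which genes lose methylation when DNMT1, the maintenance DNA methyltransferase, is depleted before or during OB differentiation. C3H10T1/2, an established mouse line from embryonic mesenchyme, received either a non-targeting siRNA (NC) or siRNA against DNMT1 (siDNMT1), with 48 h given for the transfection. Cells were left uninduced or were induced for 3 days with 50 μM ascorbic acid, 10 mM β-glycerophosphate and 0.001 μM dexamethasone (OB). Whether the uninduced cells stayed in culture for the same 3 days is not stated in the sources used here. OB and uninduced libraries may therefore also differ in time in culture and since transfection, which cannot be told apart from induction. Genomic DNA of each of the 4 conditions, NC uninduced, siDNMT1 uninduced, NC OB and siDNMT1 OB, was read by bisulfite sequencing as 1 library, so no difference below has a replicate error or a test. The siRNA is transient, the cells of a culture were not sorted by its uptake, and Dnmt1 expression was not analysed here, so the depletion has no check in these values. The measurement is the methylation level, the fraction of CpG cytosines read as methylated in a region (0 to 1), deposited without read counts. Depth is therefore unknown, and the size of counting error in a level cannot be given. Over all gene promoters the median level was 0.191 in NC uninduced, 0.188 in siDNMT1 uninduced, 0.174 in NC OB and 0.164 in siDNMT1 OB, lowest in siDNMT1 OB.

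The RUNX proteins bind DNA through a shared Runt domain together with the partner CBFβ. RUNX2 is required for osteoblasts to form, and SP7 (osterix), a zinc finger factor, acts after it. DLX5, DLX3 and MSX2 are homeodomain proteins of the same lineage, ATF4 is a bZIP factor that supports late osteoblast function and amino acid import, and TWIST1 is a bHLH protein that restrains RUNX2. In mammals CpG islands at transcription starts are mostly unmethylated, whereas CpGs in gene bodies are mostly methylated, and methylation of a start island usually goes with a silent gene. The Runx genes each have a distal start and a proximal start, the latter inside or near a CpG island.

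The distal start of each Runx gene carries a pair of RUNX motifs, and the sequence is shown because it lies outside the CpG islands measured further on. Promoter windows of RefSeq (GRCm38.p6, 250 bases before to 50 bases after the start) were available for 6 of the 9 genes, with 8 windows. In 3 of these 8, the distal windows of Runx2, Runx1 and Runx3, the letters TGTGGT occurred on either strand, with 3, 2 and 2 matches, against 16.8% of all 32851 windows. ACCACA repeated after 2 free bases, on either strand, was found in 7 windows of 32851 (0.0213%), of which 3 were these windows and 1 more overlapped that of Runx3. ACCACA is the reverse complement of TGTGGT, so both counts include the same sites. Each stretch is written 5′ to 3′ on the strand of its gene, with the motif in capitals.
Runx2, chr17:44814583-44814612, minus strand: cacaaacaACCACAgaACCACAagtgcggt
Runx1, chr16:92826025-92826054, minus strand: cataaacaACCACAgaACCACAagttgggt
Runx3, chr4:135120503-135120532, plus strand: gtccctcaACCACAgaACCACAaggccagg
With the RefSeq start counted as position 1, the site began at 24 in Runx2, at 29 in Runx1 and, upstream of the start, at -134 in Runx3. These 3 distal windows held 2, 2 and 8 CpGs. The proximal windows held 35 in Runx1 and 45 in Runx3, and the windows of Twist1, Msx2 and Atf4 held 27, 22 and 22, against a median of 7 over all windows (quartiles 3 to 20). GGGCGG, known as the GC box, occurred in 3 of 8 windows (proximal Runx3, Twist1 and Msx2), against 35.7% of all windows. TAATTG, a homeodomain motif, occurred in 0 of 8 (8.0% of all). A match describes these letters only.

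CpG density alone did not order the islands by methylation. The 30 bases with the most CpGs, outside UTRs, are shown for 6 islands that span the range of levels, with each CG in capitals and on the strand of the gene. The number in front of each is the mean level of the whole island over the 4 libraries, not that of the 30 bases.
Runx2 proximal start island, 0.0149, chr17:44735388-44735417: CGgCGgCGgcagcagCGgCGgCGgcCGcag
Twist1 start island, 0.0299, chr12:33958213-33958242: CGggCGgaggCGgCGgCGgCGgCGCGggCG
Runx3 proximal start island, 0.0963, chr4:135152337-135152366: CGCGgctcccCGCGCGgctacCGggaCGCG
Dlx3 start island, 0.496, chr11:95121517-95121546: agCGcCGCGtCGtgggCGgcCGcCGgtcCG
Sp7 coding exon island, 0.645, chr15:102358395-102358424: CGctctgaCGagctggagCGccaCGtgCGc
Runx1 island in a coding exon at the 3′ side, 0.923, chr16:92605996-92606025: CGcCGccCGtcaCGtCGggcatCGgcatCG
These stretches hold 7, 9, 8, 8, 5 and 7 CpGs in that order. Over the whole island, the Twist1 island had 10.6 CpGs per 100 bases and the Runx1 exon island 10.5, yet their mean levels were 0.0299 and 0.923. Dlx3 and Sp7 islands had 7.65 and 7.55 CpGs per 100 bases, and the start island of Runx1 had 7.19 with a mean level of 0.0813. Of 7 islands that hold a transcription start annotated in GENCODE, 6 had a mean level under 0.1, Dlx3 being the exception. Of 6 that hold none, 3 were under 0.1 (a small island of Runx1, an intronic island of Runx2 and the Msx2 island). The other 3, in coding exons of Sp7, Runx3 and Runx1, ranged from 0.645 to 0.923. The middles of the low Runx1 and Msx2 islands lie 0.438 and 0.4795 kb from the nearest GENCODE coding start, that of the Runx2 island 37.3 kb. By its RefSeq window, Msx2 has a start inside its island. The low islands of Runx1 and Msx2 are thus not away from starts.

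**Figure D1:**
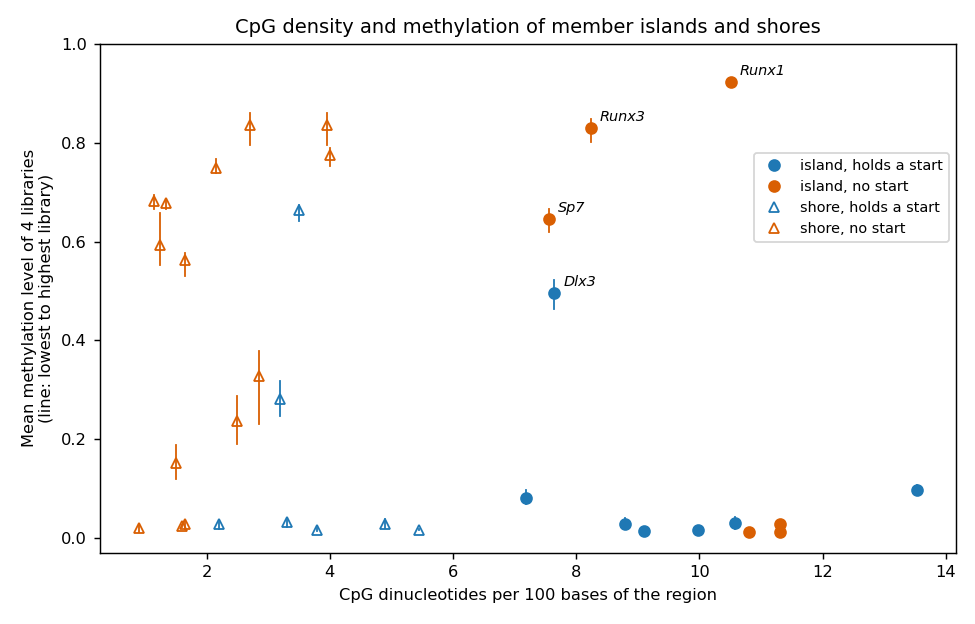
Mean methylation level over 4 libraries (y axis, fraction of CpG) against CpG dinucleotides per 100 bases (x axis) for the 13 islands (filled circles) and 21 shores (open triangles) of the 9 genes. Blue marks a region that holds a start annotated in GENCODE, and orange a region that holds none. Lines run from the lowest to the highest library. The 3 exon islands of Sp7, Runx3 and Runx1 and the start island of Dlx3 lie at 0.496 or above, and the other 9 islands lie under 0.1.

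Runx2 (ENSMUSG00000039153, chr17:44495987-44814797, minus strand) was nearly free of methylation at its 5′ regions in every library. Levels are given throughout in the order NC uninduced, siDNMT1 uninduced, NC OB and siDNMT1 OB. Its promoter entry was at 0.0179, 0.0165, 0.0149 and 0.0162, which is lower than most promoters (15.1st percentile of 20152 in NC uninduced). The 5′ UTR stood at 0.0160, 0.0154, 0.0139 and 0.0157. Neither region separated the libraries by more than 0.003. Runx2 has starts near 44814797 (distal, 15 CpGs in the 2 kb before it, fewer than in most promoters; 5.52% have fewer) and near 44735710 (proximal, 135 CpGs, 97.8% have fewer), and the start that the single promoter entry refers to is not stated in the sources used here, for Runx2 as for Runx1 and Runx3. The island across the proximal start (chr17:44734451-44736635, 199 CpGs) was at 0.0162, 0.0148, 0.0143 and 0.0144. A further island in an intron (chr17:44776991-44777627) was as low, at 0.0148, 0.0113, 0.0125 and 0.0136. The 3 shores of these islands stayed between 0.0120 and 0.0372, low but with means above those of the islands they adjoin (0.0206 to 0.0318 against 0.0130 and 0.0149).

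Further into Runx2 the levels were higher. Introns were at 0.101, 0.10, 0.0969 and 0.0965, low for introns (17.3rd percentile of 19757 in NC uninduced). The exon entry was at 0.291, 0.268, 0.271 and 0.309, lowest in siDNMT1 uninduced and highest in siDNMT1 OB. The 3′ UTR was at 0.766, 0.779, 0.773 and 0.746. Among 2809 genes with a level for all 5 region classes in all 4 libraries, the 3 whose 20 values lay nearest to those of Runx2 were Vegfa (a vascular growth factor gene; mean absolute difference 0.00875), Derl1 (0.0150) and Arfgap1 (0.0184), against a median of 0.181 and a 1st percentile of 0.0352 over these genes.

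Runx1 (ENSMUSG00000022952, chr16:92601466-92826149, minus strand), which is known for its role in blood formation, had low levels in its 5′ UTR and at islands near its proximal start. Its 3′ UTR and 3′ exon island were nearly fully methylated. No island or shore was listed at the distal start of Runx1. Its promoter entry was at 0.0799, 0.0884, 0.0692 and 0.0587 and its 5′ UTR at 0.0145, 0.0183, 0.0184 and 0.0155. Exons were at 0.480, 0.504, 0.460 and 0.499, introns at 0.384, 0.380, 0.332 and 0.341, and the 3′ UTR at 0.913, 0.914, 0.937 and 0.906, above most 3′ UTRs (97.4th percentile of 4354 in NC uninduced). The introns were lower in both OB libraries than in both uninduced ones. Over the proximal start, the island chr16:92696819-92698891 was at 0.0875, 0.0963, 0.0734 and 0.0682. A 3′ island in a coding exon (chr16:92605601-92606133) was at 0.927, 0.925, 0.925 and 0.916, the smallest spread relative to its level among the Runx1 islands.

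Among the 34 islands and shores with 4 levels, the 2 widest ranges, the only ones past 0.1, were those of Runx1 shores. The shore chr16:92698892-92700892, in an intron upstream of the proximal start (its middle at -2.56 kb), was at 0.373, 0.378, 0.328 and 0.230. The difference was -0.0972 from NC OB to siDNMT1 OB and -0.148 from siDNMT1 uninduced to siDNMT1 OB, whereas siDNMT1 minus NC was 0.00473 before induction. The island that adjoins it stayed between 0.0682 and 0.0963. On the 3′ side, the shore chr16:92603600-92605599 was at 0.552, 0.562, 0.659 and 0.603, higher by 0.106 in NC OB than in NC uninduced, while the difference in the exon island next to it was -0.00273. This shore has 25 CpGs in 2000 bases, the other 57, and the number of CpGs read in each library is unknown.

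Runx3 (ENSMUSG00000070691, chr4:135120652-135177990, plus strand) had a promoter entry at 0.250, 0.274, 0.255 and 0.247, and a 5′ UTR at 0.0208, 0.0165, 0.0150 and 0.0108. Its exons were at 0.488, 0.515, 0.482 and 0.466 and its introns at 0.646, 0.653, 0.645 and 0.622. The island at the start of a shorter transcript (chr4:135152076-135153102), the densest of all 13 with 13.5 CpGs per 100 bases, was at 0.0946, 0.106, 0.0898 and 0.0947. Its shores were highly methylated, at 0.781, 0.789, 0.778 and 0.753 upstream and at 0.673, 0.675, 0.670 and 0.641 downstream, which sets it apart from the Runx2 islands with their low shores. The coding exon island near the 3′ end (chr4:135175325-135175822) was at 0.848, 0.843, 0.828 and 0.802.

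**Figure D2:**
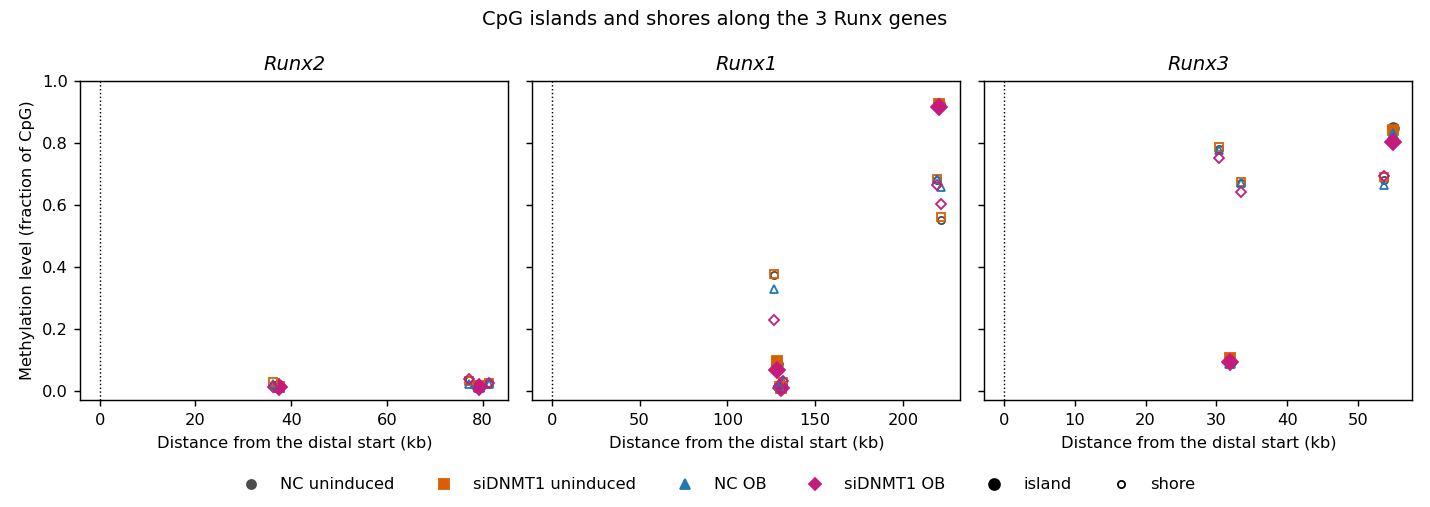
Methylation level (y axis, fraction of CpG) of islands (filled) and shores (open) against the distance of their middle from the distal start (x axis, kb; dotted line at 0) for Runx2, Runx1 and Runx3 in the 4 libraries. Runx2 regions all lie under 0.04. Runx1 and Runx3 have low islands near the middle of the plot and islands above 0.8 at the 3′ end, and the Runx1 shore near 126 kb shows the widest spread between libraries, from 0.230 to 0.378.

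Sp7 (ENSMUSG00000060284, chr15:102356606-102367182, minus strand) was moderately methylated along its length. The promoter was at 0.151, 0.131, 0.171 and 0.137, and both siDNMT1 libraries were lower than both NC libraries, with differences of -0.0199 before and -0.0339 after induction. Such a difference is common: 25.2% and 18.4% of all promoters differed at least as much. The 5′ UTR was at 0.552, 0.578, 0.594 and 0.549, which is high for a 5′ UTR (92.3rd percentile of 11491 in NC uninduced, median of the class 0.0286). Exons stood at 0.634, 0.640, 0.615 and 0.620 and introns at 0.478, 0.488, 0.495 and 0.458. Its single island lies in a coding exon, 8.15 kb from the start of the coding transcript (chr15:102358200-102358530, 25 CpGs), and was at 0.666, 0.660, 0.620 and 0.635, lower in both OB libraries. A shore over the 3′ end of the gene (chr15:102356293-102358293), which overlaps an edge of this island, was at 0.229, 0.287, 0.190 and 0.242. It was higher with siDNMT1 in both states, by 0.0576 and 0.0524. The shore that ends beside the island, chr15:102356199-102358198, has a level in siDNMT1 uninduced alone (0.6). In the other libraries, the CpGs read in the overlapping shore may therefore be those shared with the island. The difference of 0.0576 between siDNMT1 uninduced and NC uninduced may then rest on unlike CpGs, which was not tested. The shore on the other side, chr15:102358531-102360531, was at 0.569, 0.572, 0.577 and 0.531, with siDNMT1 minus NC at 0.00337 and -0.0462.

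Dlx5 (ENSMUSG00000029755, chr6:6877805-6882085, minus strand) had an unmethylated start and a highly methylated 3′ end. The start island (chr6:6881413-6882151) was at 0.0396, 0.0283, 0.0199 and 0.0233. The 3′ UTR was at 0.890, 0.888, 0.88 and 0.862, and a pair of overlapping shores near it gave identical levels, 0.860, 0.860, 0.832 and 0.795, so they rest on the same CpGs. Between these ends, the exon entry was at 0.415, 0.340, 0.283 and 0.271, the widest range of all 35 gene regions (0.144). NC OB differed from NC uninduced by -0.133, a size that 1.06% of all exon entries reached, and siDNMT1 uninduced by -0.0751 (2.99% of exon entries differed as much). The introns went the other way, at 0.541, 0.606, 0.587 and 0.675, with siDNMT1 higher by 0.0648 before induction and 0.088 after it (3.56% and 2.47% of introns differed as much). The start island and the 3′ shores differed between NC uninduced and NC OB by -0.0197 and -0.0272, less than the exon entry did. How the CpGs of an entry were weighted is not given in the sources used here, and the part that coverage of low and high CpGs has in the exon and intron values was not tested. A pair of inner shores was listed in 3 libraries only. The shore chr6:6879581-6881581 was at 0.0526, 0.0588 and 0.0324, and chr6:6879412-6881411 was at 0, 0.444 and 0. Dlx5 has no promoter or 5′ UTR entry.

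Dlx3 (ENSMUSG00000001510, chr11:95120119-95125296, plus strand) stood out by its start. Its island across the start (chr11:95120007-95121863, 142 CpGs) was at 0.515, 0.522, 0.463 and 0.483, against levels under 0.11 in every library for the other 6 islands that hold a GENCODE start. The 5′ UTR was at 0.36, 0.358, 0.279 and 0.271, the exons at 0.419, 0.435, 0.340 and 0.331, and the shore over the start (chr11:95118489-95120489) at 0.317, 0.307, 0.256 and 0.246. Each of these 4 overlapping regions was lower in both OB libraries than in both uninduced ones, while siDNMT1 and NC differed by 0.0198 at most within either state. The OB difference in the 5′ UTR was -0.0806 with NC and -0.0865 with siDNMT1, sizes that 4.08% and 3.98% of all 5′ UTRs reached. In the exons it was -0.0784 and -0.104, reached by 4.10% and 3.36% of exon entries. The promoter entry behaved differently, at 0.122, 0.0580, 0.101 and 0.0979: only siDNMT1 uninduced was low, at -0.0639 from NC uninduced (3.88% of promoters differed as much), and siDNMT1 OB differed from NC OB by -0.00316. Introns were at 0.608, 0.594, 0.583 and 0.585.

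Msx2 (ENSMUSG00000021469, chr13:53466884-53473074, minus strand), whose product represses several osteoblast genes, showed the same order of libraries in every region. The 5′ UTR was at 0.0640, 0.0577, 0.0487 and 0.0343, the exons at 0.0549, 0.0472, 0.0420 and 0.0335, and the introns at 0.173, 0.142, 0.127 and 0.110. Its island near the start (chr13:53472290-53472899) was at 0.0332, 0.0293, 0.0270 and 0.0222, and the shore inside the gene (chr13:53470289-53472288) at 0.189, 0.157, 0.138 and 0.120. NC uninduced was thus the highest and siDNMT1 OB the lowest of the 4 libraries each time, with siDNMT1 below NC in both states. The regions overlap and the differences were small, -0.0319 at most for siDNMT1 and -0.0509 at most for OB. The part of the lower median promoter level of the siDNMT1 OB library in this order was not tested.

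Atf4 and Twist1 were the least methylated genes within their transcribed regions. Atf4 (ENSMUSG00000042406, chr15:80255184-80257541, plus strand) had a promoter at 0.0331, 0.0381, 0.0327 and 0.0431. The Atf4 promoter was higher with siDNMT1 in both states by 0.00502 and 0.0105, which is common (62.0% and 49.2% of promoters differed at least as much). Its introns were at 0.0132, 0.0163, 0.0148 and 0.0113, among the lowest of all introns (2.0 percentile in NC uninduced), and its start island (chr15:80255095-80256136) at 0.0179, 0.0187, 0.0175 and 0.0121. Twist1 (ENSMUSG00000035799, chr12:33957671-33959829, plus strand) had a 5′ UTR at 0.0101, 0.0130, 0.0133 and 0.00971 and exons at 0.0131, 0.0149, 0.0140 and 0.0110. Its promoter was nonetheless the most methylated of the 7 listed, at 0.394, 0.411, 0.384 and 0.404. The island over the Twist1 start (chr12:33956952-33958701) was at 0.0421, 0.0376, 0.0218 and 0.0181, and the shore upstream of it, outside the gene (chr12:33954951-33956950), was at 0.702, 0.70, 0.685 and 0.662, so that the 2 kb before this start span a highly and a poorly methylated stretch.

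**Figure D3:**
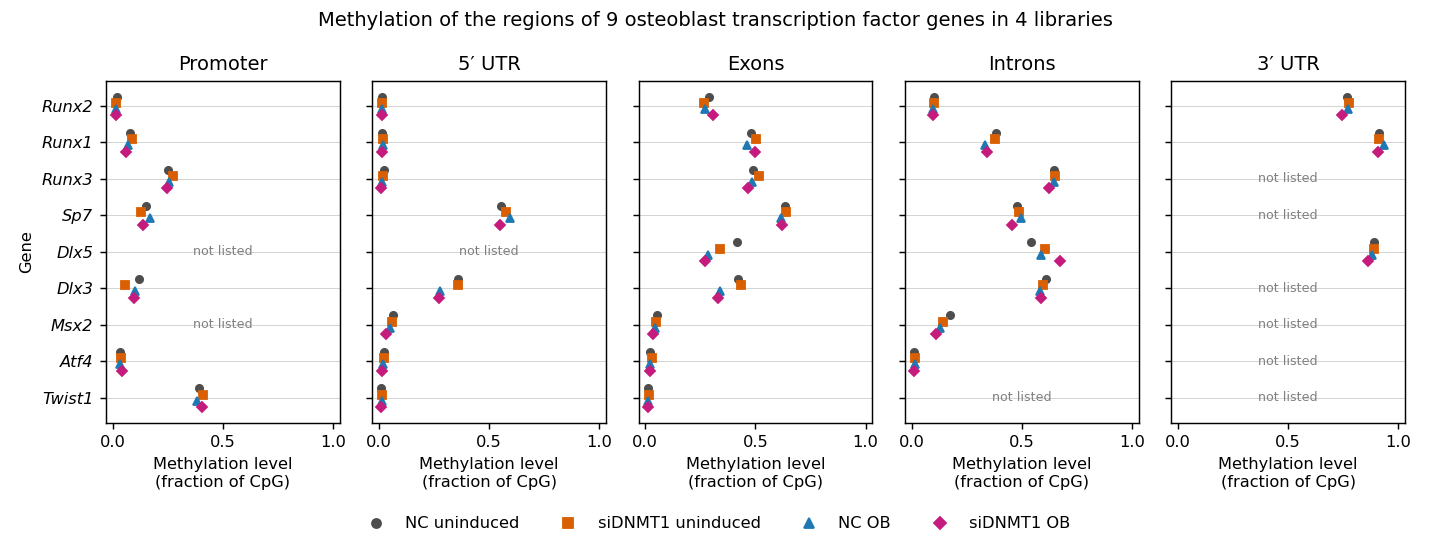
Methylation level (x axis, fraction of CpG, 0 to 1) of the promoter, 5′ UTR, exons, introns and 3′ UTR of the 9 genes (y axis) in the 4 libraries, 1 point per library. Points of a region mostly coincide: 28 of 35 regions have a range over the 4 libraries under 0.05, and the Dlx5 exons, from 0.271 to 0.415, spread most.

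Ordered by promoter level, Runx2 was lowest (0.0149 to 0.0179 over the 4 libraries), followed by Atf4 (0.0327 to 0.0431), Runx1 (0.0587 to 0.0884), Dlx3 (0.0580 to 0.122), Sp7 (0.131 to 0.171), Runx3 (0.247 to 0.274) and Twist1 (0.384 to 0.411). Only the neighbours Runx1 and Dlx3 had overlapping ranges. Msx2 and Dlx5 have no promoter entry. The median over the 7 promoters was 0.122, 0.0884, 0.101 and 0.0979, against 0.191, 0.188, 0.174 and 0.164 over all promoters. Of the 35 gene regions, 15 (42.9%) had a mean level under 0.1, against 34.3% of all gene regions.

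With siDNMT1 in uninduced cells, none of the 35 gene regions differed from NC by 0.1 or more, the size from which a change was counted, and the background was 1.54% of all gene regions. None of the 34 islands and shores did either (background 1.25%). The largest difference was that of the Dlx5 exons, -0.0751. In number, 16 of 35 gene regions were lower with siDNMT1 by any amount, against 55.9% of all gene regions. The median difference was 0.00182 over the 35 regions and -0.00158 over all. For the 34 islands and shores, 16 were lower (background 51.5%) and the median was 0.00123, against -0.000313 over all islands and shores.

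With siDNMT1 in OB cells, 0 of 35 gene regions (background 2.16%) and 0 of 34 islands and shores (background 1.71%) passed 0.1. The largest were 0.088 in the Dlx5 introns and -0.0972 in the Runx1 shore described above, just inside the threshold. Lower levels were found in 24 of 35 gene regions, against 66.8% of all, and the median was -0.00417 against -0.00619 over all (0.00182 with centred libraries). Of the islands and shores, 21 of 34 were lower (background 62.9%), with a median of -0.00480 against -0.00317. The exon entries of Runx2 and Runx1 were higher with siDNMT1, by 0.0371 and 0.0399, which 18.8% and 16.7% of all exon entries matched in size.

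Across the 69 regions, 21 were lower with siDNMT1 both before and after induction, 13 were higher both times and 35 had opposite signs, but 0 had opposite differences of at least 0.05 each. The 2 comparisons share no library. The gap between them was widest in the Runx1 intronic shore (-0.102), followed by the Sp7 5′ UTR (-0.0702), where the difference was 0.0254 before and -0.0447 after induction.

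**Figure D4:**
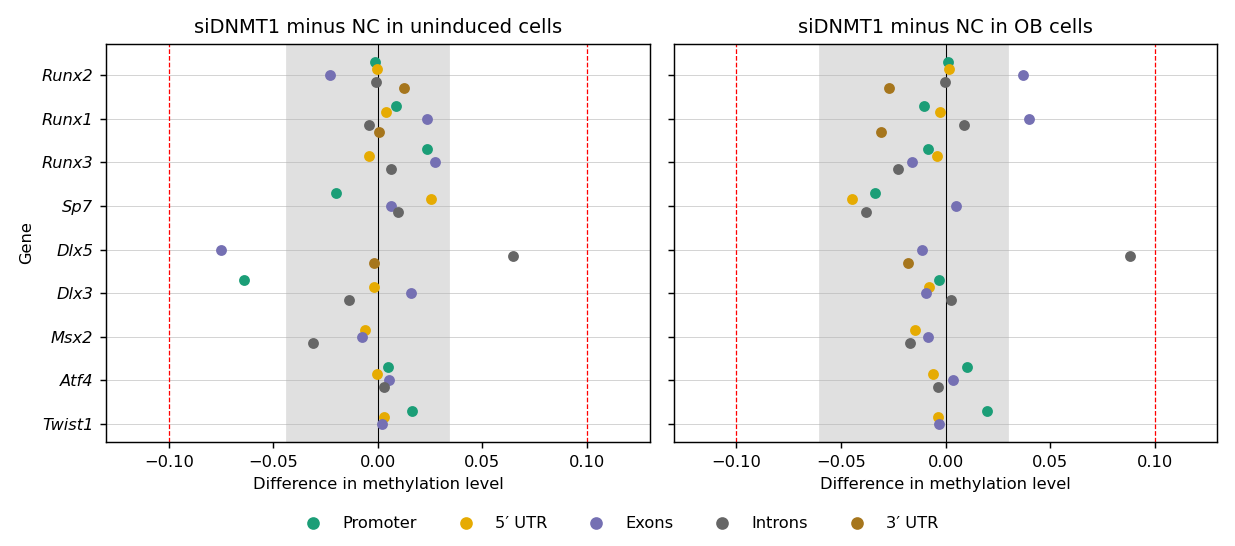
Difference in methylation level, siDNMT1 minus NC (x axis), of the listed regions of the 9 genes (y axis) in uninduced cells (left) and OB cells (right), 1 point per region. The grey band holds the central part of all 76155 gene regions (5th to 95th percentile, -0.0435 to 0.0339 on the left and -0.0602 to 0.0298 on the right) and dashed lines mark 0.1. No point reaches 0.1, and the Dlx5 introns lie right of the band on both sides.

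With NC, 1 of 35 gene regions differed between the OB and uninduced libraries by 0.1 or more (the Dlx5 exons, -0.133, background 2.14%). So did 1 of 34 islands and shores (the 3′ Runx1 shore, 0.106, background 2.08%). With siDNMT1, 1 gene region (the Dlx3 exons, -0.104; background 3.39%) and 1 shore (the intronic Runx1 shore, -0.148; background 2.99%) changed. Counted by any amount, 24 of 35 gene regions were lower in OB with NC (61.7% of all gene regions) and 29 of 35 with siDNMT1 (72% of all). The medians were -0.00465 and -0.00891, against -0.00339 and -0.00800 over all gene regions. Of the islands and shores, 24 and 28 of 34 were lower (background 67.7% and 77%). These 68.6% and 82.9% of the gene regions stand above the genome-wide shares without a test, since regions of a gene overlap and each condition is 1 library. With each library centred on the median of its region class, the Dlx3 exon difference was -0.0801, under 0.1, and both medians turned positive (0.00604 and 0.000693). The subtracted shift was larger than the median difference over all promoters (-0.0171 against -0.00320 with NC). A centred median over all gene regions was not calculated, so the turn cannot be read as a property of the 9 genes. Each OB comparison, with NC or with siDNMT1, shares a library with each siDNMT1 comparison above.

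The size of these differences went with the level. Among all gene regions with a mean level under 0.1, the share that changed by 0.1 was 0.291%, 0.172%, 0.275% and 0.321% in the order of the 4 comparisons above, and with a mean level of 0.1 or more it was 2.19%, 3.20%, 3.11% and 4.99%. In the 15 low regions of the 9 genes, the largest difference was 0.0639 (the Dlx3 promoter), and the median size with siDNMT1 was 0.00382 before and 0.00356 after induction. In the 20 regions at 0.1 or more, the corresponding medians were 0.0163 and 0.0190.

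Genes around these factors were read from lists of partners and targets. The partner list (38 genes such as Cbfb, Msx1 and the SMAD, AP-1 and WNT mediators) had 156 regions, of which 0 changed with siDNMT1 before and 1 after induction, the introns of Yap1 (a co-activator of the Hippo pathway) at 0.454, 0.463, 0.342 and 0.487, higher by 0.145. Their median differences were 0.00121 and -0.00243, with 71 and 98 of 156 lower, against 55.9% and 66.8% of all gene regions. Between OB and uninduced libraries, 3 and 3 changed (1.92% each, against 2.14% and 3.39% of all gene regions). The target list of bone matrix and mineralization genes (20 genes, 17 with levels, 47 regions) had 1 change in each siDNMT1 comparison (2.13%, against 1.54% and 2.16% of all gene regions). The Fmod 3′ UTR (fibromodulin, a collagen-binding proteoglycan) was at 0.50, 0.625, 0.45 and 0.474, higher by 0.125 before induction. The Sparc promoter (osteonectin, a matrix protein of bone) was at 0.396, 0.351, 0.359 and 0.183, a difference of -0.176 after induction. Lower levels with siDNMT1 were found in 35 and then 33 of the 47 target regions, with medians of -0.00759 and -0.0163, against 55.9% and 66.8% lower and medians of -0.00158 and -0.00619 over all gene regions.

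Markers of cell types were read by promoter methylation, which is not expression, to set the label of a mesenchymal line beside the data. Of 8 mesenchymal genes, 7 had a promoter level, with mean levels from 0.0152 (Col1a2, type I collagen, listed in 3 libraries) and 0.0168 (Vim, vimentin) to 0.774 (Thy1). Haematopoietic genes ranged from 0.348 to 0.489 (3 of 4 listed), epithelial genes from 0.36 to 0.637 (2 of 4 listed), and Myod1, the myogenic regulator, was at 0.309. The ranges overlap, so promoter levels alone do not assign the cell type.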

How the data were processed

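Reduced representation bisulfite sequencing was analysed in 4 C3H10T1/2 libraries, 1 per condition, grouped by the sample labels. According to the submitters' processing notes, CASAVA, Trimmomatic (0.36) and Bismark (0.16.3) were used with mm10. The protocol describes sonicated DNA and names no restriction digest. The authors deposited a methylated fraction of CpG for each region; promoters are the 2 kb before the start. Coverage minimum and weighting of CpGs are not given in the sources used here, and depth is unknown.

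Genes were matched by Ensembl identifier to GENCODE vM21 (28858 of 28883 identifiers). Starts were counted from 1; all 14354 islands then begin and end with CG in GRCm38. A shore's ends may be off by 1 base. Differences used only regions listed in 4 of 4 libraries, a change was counted from 0.1, and no test was run, since each comparison sets 1 library against 1. The members and lists were chosen with earlier results of these data known. The text names all 9 members, the 3 genes nearest to Runx2 over 20 values, and listed regions changed by 0.1 with siDNMT1 (at most 5 per list). Functions were tested on simulated data. Alternatives were other thresholds, centring, region sets and overlaps. Calculations used numpy 2.4.6, scipy 1.17.1 and pandas 2.3.3, sequences pysam 0.24.0 and plots matplotlib 3.10.9 (Python 3.11.15). Expression was not analysed here.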

Additional observations from a re-analysis of the deposited data

How the results depend on the processing

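With a change counted from 0.05, the gene regions changed with siDNMT1 numbered 3 in uninduced and 1 in OB cells. Between uninduced and OB libraries they numbered 4 with NC and 4 with siDNMT1. For islands and shores the counts were 1, 3, 4 and 4. The 1 with siDNMT1 in uninduced cells was the shore over the 3′ end of Sp7, where the libraries may have read unlike CpGs. From 0.2 every count was 0, also where it was 1 from 0.1. With each library centred on the median level of its region class, the siDNMT1 comparison in OB cells gained 1 gene region. The OB comparison with siDNMT1 kept 0, since the Dlx3 exon difference went from -0.104 to -0.0801. The Dlx5 exons (-0.119) and both Runx1 shores (0.125 and -0.118) stayed past 0.1. Centring turned 3 medians: -0.00417 to 0.00182 (siDNMT1 in OB cells), -0.00465 to 0.00604 (OB with NC) and -0.00891 to 0.000693 (OB with siDNMT1). The subtracted shift of the class medians reached -0.0239 for promoters (OB with siDNMT1), against a median difference of -0.00654 over all promoters. The turned signs therefore cannot be read as a property of these genes. Over entries whose mean level reached 0.1 the median was 0.00634 (siDNMT1, uninduced) and -0.0277 (OB with siDNMT1). Counting shores of identical levels a single time, an alternative chosen after seeing the data as was the centring of named regions, and other overlap rules or region sets left the counts as they were. Means in place of medians were 0.000212, -0.00361, -0.0118 and -0.0156 in the same order of comparisons. No paired analysis was possible because each condition has 1 library, and for the same reason no library could be left out. Depth limits all levels to an unknown degree.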
